A study of Mus musculus with 8 samples.

Results

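This account covers the mouse zinc finger genes whose symbol is Zfp followed by a number from 600 upward, together with Rsl1, in bone marrow-derived dendritic cells given stem cell factor (SCF) under low oxygen. All probe sets that carry exactly 1 such symbol were taken, and each gene was represented by its probe set with the highest mean over the 8 arrays. This gave 156 genes from 168 probe sets, among 22180 genes with such a probe set on the arrays. The set was put together because Zfp772 and Rsl1 were lower with SCF in these same arrays, so all values of the SCF comparison given here are descriptions and support nothing by themselves.

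The cells were wild-type female C57BL/6 bone marrow cells, cultured with GM-CSF (20 ng/ml, 21% oxygen) for 7 days, after which CD11c beads gave a purity of at least 98%. The medium group then stayed at 2% oxygen (about 14 mmHg) with GM-CSF for 2 days and was left untreated for a further 6 hours. The SCF group had the same culture, oxygen and GM-CSF, and received SCF at 100 ng/ml for those 6 hours. Each of 4 experiments, named BC, D2, E and I, gave 1 medium and 1 SCF culture from the same purified cells, so there were 4 arrays per group in 4 pairs. There was no group at normal oxygen, and the age of the mice is not given in the sources used here.

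Zinc finger proteins of this naming series carry C2H2 fingers, short loops held by a zinc ion that read a few bases of DNA each. Many of them also carry a KRAB domain, which recruits the corepressor Trim28 and, through it, the histone methyltransferase Setdb1, and so silences retroelements and nearby genes. These KRAB genes arose by repeated duplication and lie in clusters on a few chromosomes. Others of the series have no KRAB domain and work in ribosome assembly, splicing or chromatin binding.

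Many members lie next to each other in the gene order. Of 155 members found as protein-coding genes in the RefSeq gene table, 69 (44.5%) had another member as the next protein-coding gene on at least 1 side. Promoter windows of 300 bases (250 before to 50 after a gene's start) were found in RefSeq for 136 members, on build GRCm38.p6. Chromosome 7 held 32 of these 136 genes, chromosome 17 held 20, chromosome 8 held 13, and chromosomes 13 and 4 held 10 each. Rsl1 and Zfp772 lie in different clusters, on chromosomes 13 and 7.

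The windows of Zfp772 and Rsl1 are shown because their lower values led to the choice of the set, and those of Zfp933 and Zfp606 because, of the 5 tested members higher with SCF in 4 of 4 experiments, these had the most even differences. This choice was made after the values were seen. Capitals mark every match to CCAAT (the CCAAT box) or GGGCGG (the GC box, bound by Sp1) on either strand. These motifs do not overlap in the windows shown. Each sequence runs 5′ to 3′ on the gene's own strand. They are chr7:7209949-7210248 on the minus strand, chr13:67172932-67173231 on the plus strand, chr4:147848369-147848668 on the minus strand and chr7:12478055-12478354 on the plus strand.
Zfp772: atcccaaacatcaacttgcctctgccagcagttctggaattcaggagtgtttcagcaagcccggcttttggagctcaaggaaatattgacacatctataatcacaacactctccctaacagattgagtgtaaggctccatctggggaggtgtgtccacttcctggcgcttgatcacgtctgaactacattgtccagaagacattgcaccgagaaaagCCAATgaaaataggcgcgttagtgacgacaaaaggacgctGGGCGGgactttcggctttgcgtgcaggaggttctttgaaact
Rsl1: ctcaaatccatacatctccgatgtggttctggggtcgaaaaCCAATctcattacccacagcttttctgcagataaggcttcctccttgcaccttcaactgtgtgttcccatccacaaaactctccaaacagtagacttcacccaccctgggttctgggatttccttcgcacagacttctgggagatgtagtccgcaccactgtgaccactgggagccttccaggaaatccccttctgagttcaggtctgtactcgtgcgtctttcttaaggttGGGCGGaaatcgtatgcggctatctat
Zfp933: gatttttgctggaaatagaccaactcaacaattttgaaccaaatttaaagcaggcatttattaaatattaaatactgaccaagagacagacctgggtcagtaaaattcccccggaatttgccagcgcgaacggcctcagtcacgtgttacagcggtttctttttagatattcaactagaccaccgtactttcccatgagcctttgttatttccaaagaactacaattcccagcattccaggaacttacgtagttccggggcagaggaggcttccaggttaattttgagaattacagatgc
Zfp606: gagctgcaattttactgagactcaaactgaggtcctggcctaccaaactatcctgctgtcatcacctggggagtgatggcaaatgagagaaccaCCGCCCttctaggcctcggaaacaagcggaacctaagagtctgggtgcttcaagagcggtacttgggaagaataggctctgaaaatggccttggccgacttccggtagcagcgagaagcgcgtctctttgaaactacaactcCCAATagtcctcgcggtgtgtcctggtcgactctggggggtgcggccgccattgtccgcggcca
Zfp772, Rsl1 and Zfp606 each held 1 CCAAT and 1 GGGCGG match, while the window of Zfp933 held neither of these letters.

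Over the whole set, CCAAT was found in 94 of 165 member windows (57.0%), against 37.4% of all 32851 windows of the table. The GC box GGGCGG stood in 44.8% of member windows and 35.7% of all, and the ETS motif CCGGAAG in 16.4% and 8.86%. For the motif of NRF1 the shares were 8.48% and 4.60%. TATAAA, the TATA box, was less frequent among the members, at 5.45% against 13.6%. TGANTCA, the AP-1 motif, stood in 4.85% of member windows against 7.81%, and the cAMP response element TGACGTCA in 0.606% against 1.79%. The E box CACGTG stood in 9.70% against 7.15%. Both strands were searched, and windows of 1 gene can overlap each other. The 32851 windows came from 27025 genes with no filter on gene type. Zfp genes numbered below 600 were not looked at separately, so these shares are not shown to be particular to the members. The median number of CpG dinucleotides was 12 per member window, with a range of 1 to 59, and 7 over all windows. These are descriptions of letters in a window, with no test, and a match is not evidence of binding.

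The arrays gave intensities on a linear scale, and all levels and differences here are in log2 units of them. Array medians lay between 13.3 and 13.9 on the linear scale, and Pearson's r across probe sets between any 2 arrays lay between 0.990 and 0.995. All 13 dendritic cell markers and all 8 macrophage and monocyte markers found on the arrays reached the intensity filter of 4.05, against 3 of 9 mast cell and basophil, 1 of 8 neutrophil, 1 of 3 B cell, 0 of 6 T and NK cell and 1 of 5 stroma markers. A bulk array cannot tell fewer cells of a type from less RNA per cell.

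The comparison of SCF with medium asked how these genes stood 6 hours after SCF was added to hypoxic dendritic cells. Zfp772 was the member with the largest difference, and Rsl1 came next. Both are KRAB zinc finger genes. Rsl1 (regulator of sex-limitation) is known for silencing male-specific liver genes in female mice. In both genes every SCF array lay below every medium array. For Zfp772 this was only just so, with SCF of E at 4.304 and medium of I at 4.309. Of the 100 tested members these 2 alone were lower without overlap, against 0.403% of all probe sets tested. Since these 2 genes led to the choice of the set, nothing is read from this count. Among the other 98 tested members it was 0.

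Zfp772 measured 4.73 (BC), 4.35 (D2), 4.51 (E) and 4.31 (I) in medium, and 3.91 (BC), 4.10 (D2), 4.30 (E) and 4.04 (I) with SCF. Its medium arrays were thus spread over about as wide a range as its SCF arrays, with the highest medium and the lowest SCF value both in BC. The group levels were 4.47 ± 0.19 (SD, n = 4) in medium and 4.09 ± 0.16 (SD, n = 4) with SCF, a log2 difference of −0.38 (SE 0.10, 95% interval −0.63 to −0.14) or 0.766-fold. By experiment the difference was −0.81 (BC), −0.25 (D2), −0.21 (E) and −0.27 (I). It was −0.24 without BC, 1.59 times smaller. In BC all 8 macrophage and monocyte markers were also lower with SCF, by a mean log2 difference of −0.27, against 0.08 in D2, −0.09 in E and 0.0054 in I. Of the 13 dendritic cell markers 2 were lower in BC. Their mean difference was 0.08 (BC), −0.0096 (D2), 0.0087 (E) and 0.037 (I). The summed linear intensity of the 8 macrophage and monocyte markers ranged from 3716 to 4665 over the medium arrays. Over the SCF arrays it ranged from 3476 to 4385. The part of either marker group in the values of Zfp772 and Rsl1 was not tested.

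Rsl1 measured 4.49 (BC), 4.71 (D2), 4.55 (E) and 4.58 (I) in medium, and 3.99 (BC), 4.30 (D2), 4.31 (E) and 4.36 (I) with SCF. The lowest medium array of Rsl1 lay above its highest SCF array, and BC was lowest in both groups. The group levels were 4.58 ± 0.09 (SD, n = 4) and 4.24 ± 0.17 (SD, n = 4). The log2 difference was −0.34 (SE 0.06, 95% interval −0.49 to −0.19), or 0.788-fold, made up of −0.50 (BC), −0.41 (D2), −0.24 (E) and −0.23 (I). The differences of the 4 experiments were closer to each other than those of Zfp772, and without BC the value was −0.29.

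Both genes were dim. The means over 8 arrays were 4.28 for Zfp772 and 4.41 for Rsl1, close above the filter of 4.05, and the SCF level of Zfp772 stood at 4.09. The files give no background level, so how much of such an intensity is specific signal is unknown. Each gene has 1 probe set with its symbol alone. Another 2 probe sets list Zfp772 together with other genes and were not used. Near-identical copies of KRAB zinc finger genes can share probe sequence, and probe sequences were not analysed here.

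**Figure D1:**
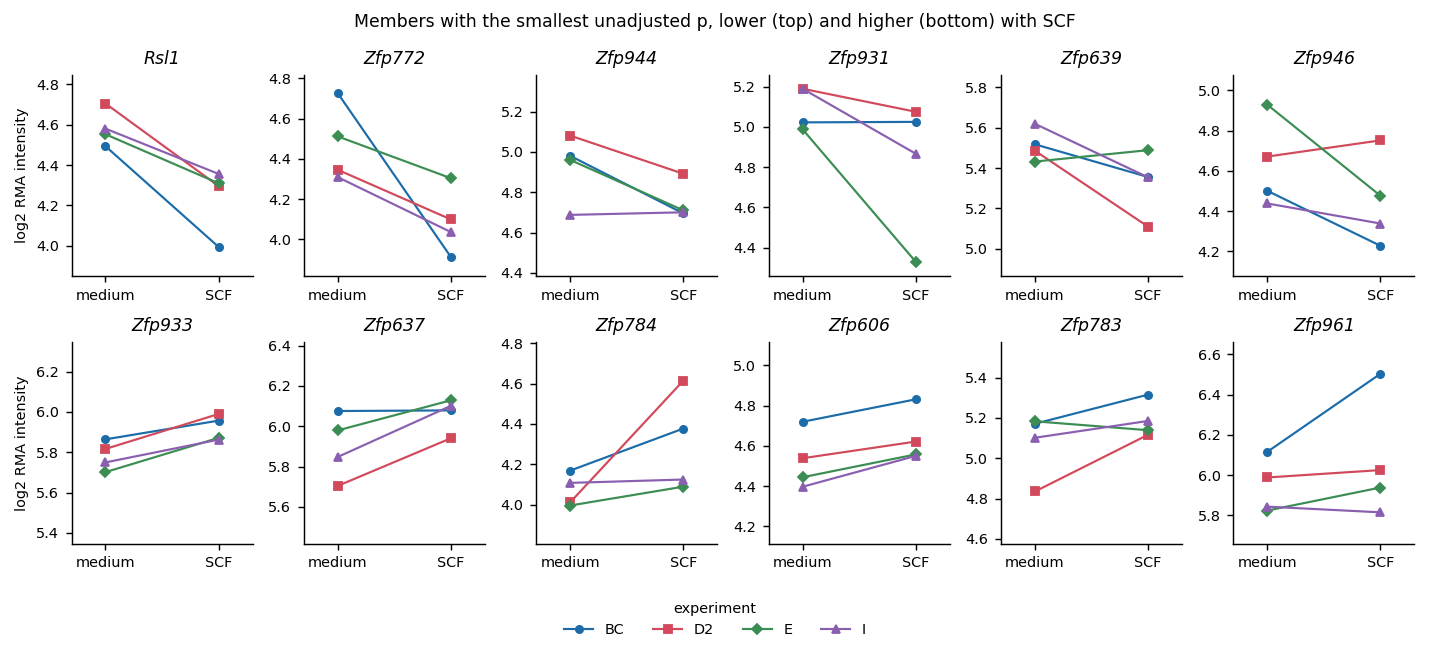
Log2 intensity of 12 members in medium and with SCF, with a line joining the 2 arrays of each experiment (BC, D2, E, I). The top row holds the 6 tested members with the smallest unadjusted p that were lower with SCF, the bottom row the 6 that were higher, and every panel spans 1 log2 unit. The SCF values of Rsl1 and Zfp772 all lie below their medium values, while in the other panels the groups overlap.

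Across the set, no shift of the members as a group was seen. Of the 156 members, 100 (64.1%) reached the intensity filter and were tested, the same share as among Zfp genes numbered below 600 (64.1% of 181), against 51.2% of all genes. Of the 100 tested members, 50 were below 0 and 50 above, where 49.5% of all probe sets tested and 50.7% of all 11351 genes tested were below 0. The median difference was −0.000095 over the tested members and −0.0011 over all genes tested. Over all 156 members 77 were below 0 and 79 above, with a median of 0.0029, against 0.0041 over all 22180 genes. Zfp genes numbered below 600 had 46 of 116 below 0 and a median of 0.02.

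With the arrays paired by experiment, limma gave no member an adjusted p under 0.05, and 0% of all 12668 probe sets tested had one. The smallest adjusted p of a member was 0.945, which was also the smallest of any probe set. At an unadjusted p under 0.05 there were 5 members lower with SCF, against 2.26% of all probe sets, and 4 higher, against 1.95%. Since the set was chosen on this contrast, nothing is read from these counts. Lower in all 4 experiments were 3 members (6.44% of all probe sets), Rsl1, Zfp772 and Zfp846, and higher in all 4 were 5 (6.45% of all probe sets), Zfp606, Zfp637, Zfp784, Zfp866 and Zfp933. The fitted fold over the tested members ran from 0.766 to 1.17. For 99 of 100 the 95% interval lay within 1.5-fold in both directions, the exception being Zfp772. Only 3 members, Zfp772, Rsl1 and Zfp931, differed by 1.2-fold or more, all lower with SCF. Zfp772 and Rsl1 led to the choice of the set, so nothing is read from this count or its direction. The share of all genes at this bound is not given here. Over all genes tested, members included, the log2 differences ran from −0.38 to 0.40, and the lower end is Zfp772 itself.

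**Figure D2:**
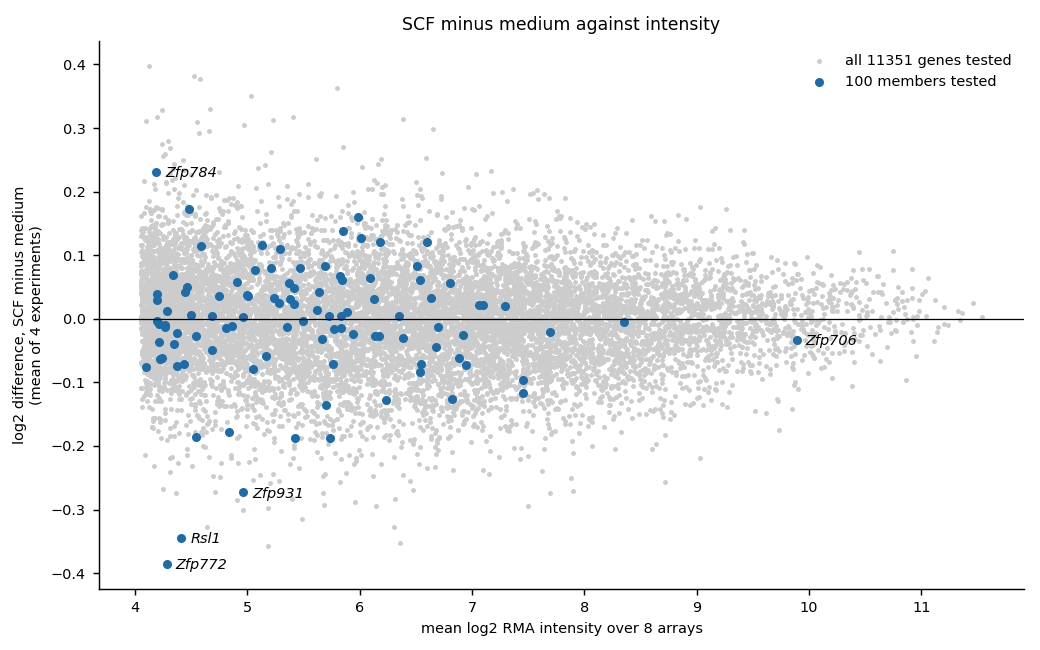
Log2 difference (SCF minus medium, mean of 4 experiments) against mean log2 intensity over 8 arrays, for all 11351 genes tested (grey) and the 100 tested members (blue). Zfp772 at −0.38 and Rsl1 at −0.34 lie at the lower edge of the grey cloud at low intensity, and the other members lie within it on both sides of 0.

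By experiment, the median difference of the 100 tested members was 0.04 (BC), 0.0073 (D2), −0.02 (E) and −0.02 (I), and 41, 47, 57 and 53 of them were below 0 in these experiments. Over all genes tested the medians were −0.01, 0.0037, −0.0014 and 0.0049. Zfp772 and Rsl1 had their largest differences in BC, the experiment with the fewest members below 0.

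**Figure D3:**
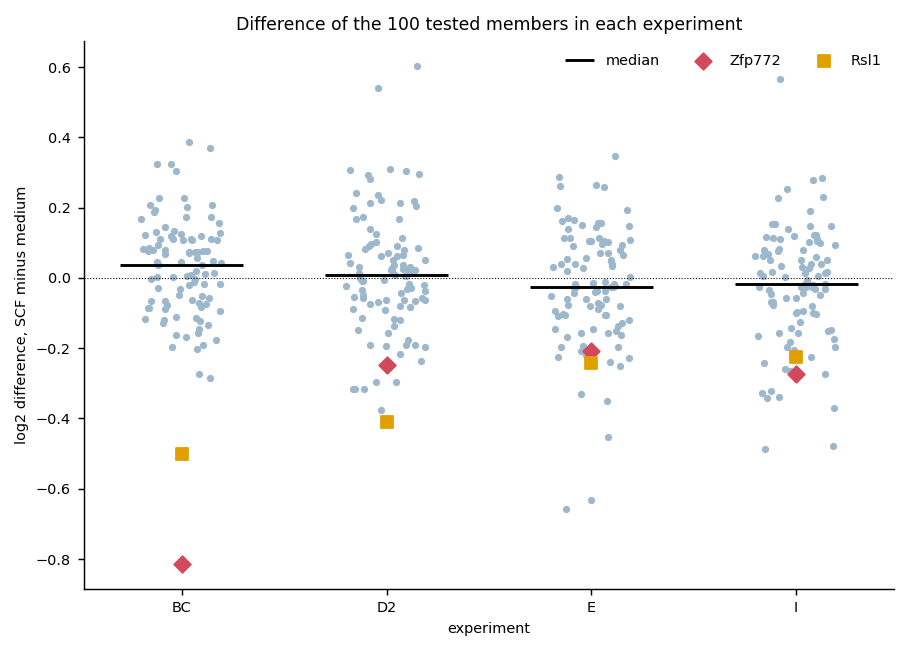
Log2 difference (SCF minus medium) of each tested member in each of the 4 experiments, with the median of the 100 members as a black bar, Zfp772 as red diamonds and Rsl1 as yellow squares. The medians lie between −0.02 and 0.04, and both named genes lie below 0 in every experiment, with Zfp772 at −0.81 in BC.

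Apart from Zfp772 and Rsl1, 4 tested members had the smallest unadjusted p among those lower with SCF. They were Zfp944, Zfp931, Zfp639 and Zfp946. Zfp931 measured 5.02 (BC), 5.19 (D2), 4.99 (E) and 5.19 (I) in medium, and 5.02 (BC), 5.08 (D2), 4.33 (E) and 4.87 (I) with SCF. Its SCF array of E was the low one, BC showed no difference, and the groups overlapped. The log2 difference was −0.27 (SE 0.10), or −0.14 without E. Zfp944 was at −0.18 (SE 0.06), with −0.29 (BC), −0.19 (D2), −0.25 (E) and 0.013 (I). Zfp639, the mouse form of ZASC1, was at −0.19 (SE 0.08) and was higher with SCF in E, at 0.057. It was −0.12 without D2. Zfp946 was at −0.19 (SE 0.09), ranging from −0.45 in E to 0.08 in D2, and was −0.10 without E. In all of these the medium and SCF arrays overlapped, and each was lower in 3 of 4 experiments.

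The 6 members with the smallest unadjusted p on the higher side were Zfp933, Zfp637, Zfp784, Zfp606, Zfp783 and Zfp961. Zfp933 measured 5.86 (BC), 5.82 (D2), 5.70 (E) and 5.75 (I) in medium, and 5.96 (BC), 5.99 (D2), 5.87 (E) and 5.86 (I) with SCF. The shift in Zfp933 was small and even across experiments, at 0.093 (BC), 0.17 (D2), 0.17 (E) and 0.11 (I), on average 0.14 (SE 0.05). Zfp606 was similar in that respect, at 0.11 (BC), 0.083 (D2), 0.11 (E) and 0.15 (I), with a mean of 0.12 (SE 0.05). For both genes the medium and SCF arrays overlapped because the experiments differed in level. For Zfp933 the overlap was only just so, with medium of BC at 5.864 and SCF of I at 5.863. Zfp637 was at 0.16 (SE 0.06), with 0.0032 in BC. Zfp784 had the highest difference of the set at 0.23 (SE 0.10), of which 0.60 came in D2, and it was 0.11 without D2. Its second, dimmer probe set, with a mean of 4.00, went the other way at −0.05. Zfp783 was at 0.12 (SE 0.06), with 0.28 in D2 and 0.061 without it. Zfp961 was at 0.13 (SE 0.08), with 0.39 in BC and 0.041 without it.

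Rsl1 lies in a run of zinc finger genes that follow each other on chromosome 13, many of them first described as Rsl1 candidates. Within 10 protein-coding genes of Rsl1 this run held 15 genes, from Zfp712 to Zfp874b, and 13 of them had a probe set of their own. Of these 13, Rsl1 included, only 6 reached the intensity filter, and the rest were dim and not tested. Besides Rsl1, 4 of the other 12, tested or not, were below 0 and 8 above. Their median was 0.04, with a range of −0.22 to 0.26. Zfp759, the neighbour of Rsl1 on one side, was at −0.22 with −0.70 (BC), 0.004 (D2), −0.21 (E) and 0.038 (I), at a mean level of 3.65 below the filter. Zfp455, the neighbour on the other side, was at 0.027, at a mean level of 2.99, also below the filter. Of the members in the run, Zfp712 was at 0.17 (SE 0.10), or 0.041 without I, where it differed by 0.57. Zfp708 encodes a KRAB protein and was dim, at 2.94 (BC), 3.03 (D2), 4.03 (E) and 2.81 (I) in medium and 3.11 (BC), 3.10 (D2), 2.88 (E) and 3.05 (I) with SCF. A single array, medium of E, stood about 1 log2 unit above the other arrays of Zfp708 and made its mean difference −0.16, although SCF was the higher array in BC, D2 and I. Zfp456, numbered below 600, had the highest mean of the run at 0.26 (SE 0.18), with 0.97 in D2 and −0.37 in E. Rsl1 was the gene of the run that was lower in 4 of 4 experiments, and no test of its difference from the other 12 was made.

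**Figure D4:**
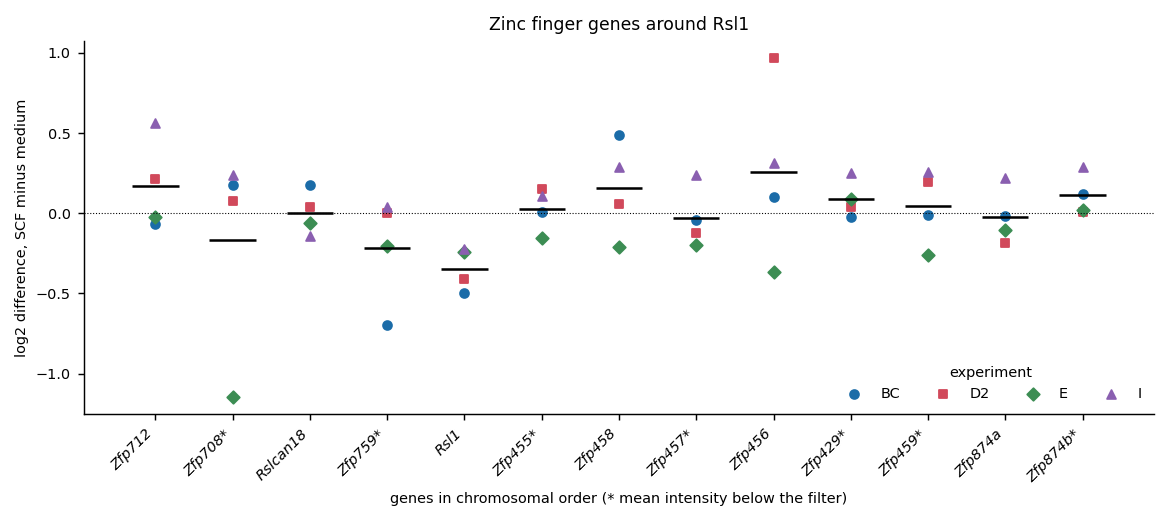
Log2 difference (SCF minus medium) in each experiment for 13 zinc finger genes around Rsl1 in chromosomal order, with the mean of 4 experiments as a black bar. Genes marked with a star had a mean intensity below the filter. The 4 points of Rsl1 all lie below 0, and those of its neighbours lie on both sides of 0, except the 4 of Zfp874b, all above 0.

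Near Zfp772 on chromosome 7 lie Zfp418, Zfp773 and Zfp954, the 3 genes before it in the gene order. Zfp773, below the filter at a mean of 3.10, was at 0.15, and Zfp954, at a mean of 5.89, was at 0.01 (SE 0.08). Zfp418, numbered below 600 and below the filter, was at −0.034. Zfp773 was the higher array with SCF in BC, at 0.37, where Zfp772 was at −0.81.

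Several members with a described function were looked at one by one. Zfp809, a KRAB protein that recognises the primer binding site of murine leukaemia virus and silences its proviruses, measured 7.28 ± 0.09 (SD, n = 4) without and 7.30 ± 0.12 with SCF. Its difference was 0.019 (SE 0.06, 95% interval −0.12 to 0.15). Zfp932, a KRAB protein that represses endogenous retroviruses, was below the filter at a mean of 3.00 and was at 0.14. Zfp655, described as binding Vav, was at −0.026 (SE 0.07). Among members without a KRAB domain, Zfp622, a maturation factor of the large ribosomal subunit, was at −0.02 (SE 0.06), and Zfp830, a splicing protein, at −0.014 (SE 0.06). Zfp638 (NP220), a nuclear protein that binds cytidine-rich DNA, was at −0.073 (SE 0.06). The 95% intervals of the tested genes among these all included 0.

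Others act in transcription and signalling. Zfp703, a corepressor of the NET family, was at −0.071 (SE 0.07), and Zfp652, which works with Cbfa2t3, at 0.0048 (SE 0.06). Zfp746 (PARIS), a Parkin substrate that represses the PGC-1α gene, was at 0.061 (SE 0.07), though that value rested on E, as it was −0.0057 without it. Zfp687, a partner of Zmynd8, was at 0.057 (SE 0.08), with 0.30 in D2 and −0.024 without it. Zfp668, linked to p53 and DNA repair, was at 0.036 (SE 0.06), and Zfp692 at 0.0037 (SE 0.06), which was −0.02 with the array medians equalized. For each tested gene named with a function here, from Zfp809 to Zfp692, leaving out 1 experiment could move the value by more than 1.5 times, within −0.14 to 0.13. Zfp711, the partner of the demethylase Phf8, Zfp658, linked to zinc homeostasis, Zfp667, and Zfp750, a regulator of epidermal differentiation, were all below the filter, with differences of 0.028, −0.081, 0.093 and −0.094.

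The brightest probe sets of the set were those of Zfp706, Zfp984, Zfp622, Zfp945, Zfp800 and Zfp809. Probe sets differ in their response, so this is an order of probe set intensities and not of transcript levels. Zfp706 had the highest mean log2 intensity, 9.89, and measured 9.85 (BC), 10.10 (D2), 9.87 (E) and 9.79 (I) in medium, and 9.85 (BC), 9.89 (D2), 9.86 (E) and 9.89 (I) with SCF. Its SCF arrays lay within the range of its medium arrays, and the difference was −0.033 (SE 0.06), which was 0.028 without D2. Zfp984 was at −0.0054 (SE 0.07), Zfp945 at −0.12 (SE 0.07) and Zfp800, a gene of pancreas development, at −0.10 (SE 0.07). Zfp945 was lower in D2, E and I but higher in BC, and was −0.20 without BC. The value of Zfp800 rested on D2, at −0.30, and was −0.029 without it. Zfp984 was 0.058 without D2.

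The 56 members below the filter were described without a test. Their means ran from 2.43 to 4.03, 27 were below 0 and 29 above, and their median difference was 0.0039, with a range of −0.22 to 0.15. The members just above the filter were Zfp939 and Zfp784, at means of 4.09 and 4.19, with differences of −0.076 and 0.23. Zfp939 was at 0.011 without I, and its second, dimmer probe set was higher with SCF in 4 of 4 experiments, at 0.11. The members just below the filter were Zfp677 and Zfp663, at 4.03 and 4.02, with −0.017 and −0.07. At the boundary of the numbering, Zfp600 and Zfp605 inside it were at −0.13 and −0.074, and Zfp599 and Zfp598 outside it at −0.18 and 0.034.

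Corepressor genes of KRAB proteins and general heterochromatin genes were taken from a list of 41 symbols, of which 37 were found and 36 reached the filter. In limma 0 genes of the list had an adjusted p under 0.05, and at an unadjusted p under 0.05 there was 1, higher with SCF. Of the 36, 18 were below 0 and 18 above, with a median of −0.0015. Trim28, the corepressor that binds the KRAB domain, measured 7.82 ± 0.20 (SD, n = 4) in medium and 7.87 ± 0.16 with SCF, a difference of 0.041 (SE 0.05). Setdb1, which trimethylates lysine 9 of histone H3, measured 7.64 ± 0.06 and 7.64 ± 0.05, a difference of 0.004 (SE 0.05). The smallest unadjusted p-values belonged to Uhrf1, a reader of hemimethylated DNA, at 0.22 (SE 0.08), Morc3, a nuclear body ATPase, at −0.14 (SE 0.07), and Ehmt1, the histone methyltransferase GLP, at 0.11 (SE 0.06). Uhrf1 was above 0 in 4 of 4 experiments, with 0.53 in I and 0.08 to 0.14 in the others.

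How the members varied between the separately run experiments is a question the choice of the set did not use. In the limma F test of the 3 experiment terms, with treatment as the other term, 2 of the 100 tested members passed an adjusted p of 0.05, which is 2.00%, against 3.35% of all probe sets tested. These were Zfp819 (adjusted p = 0.0335) and Zfp827 (adjusted p = 0.0452). Zfp948 (adjusted p = 0.0576) and Zfp697 (adjusted p = 0.0718) came next and did not pass. No member was called when any 1 of the 4 experiments was left out, and none was called with no intensity filter. The median range between the experiment means was 0.21 over the tested members and 0.20 over all genes tested.

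Zfp819, a KRAB gene known for repressing retroelements in pluripotent cells, measured 5.57 (BC), 5.38 (D2), 5.08 (E) and 5.54 (I) in medium, and 5.65 (BC), 5.35 (D2), 5.12 (E) and 5.64 (I) with SCF. Both arrays of E were low and both of BC and I high, in either condition. The range of its experiment means was 0.51, and its SCF difference was 0.048 (SE 0.05). Zfp827, which recruits the NuRD complex to telomeres, measured 5.58 (BC), 5.25 (D2), 5.19 (E) and 5.43 (I) in medium, and 5.62 (BC), 5.20 (D2), 5.13 (E) and 5.45 (I) with SCF. BC and I were above D2 and E in both conditions, and the SCF difference was −0.013 (SE 0.05). Zfp948 was highest in D2, at 6.62 as the mean of both arrays, and lowest in I, at 6.21. Zfp697 was highest in I, at 4.44, and lowest in D2, at 4.02.

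**Figure D5:**
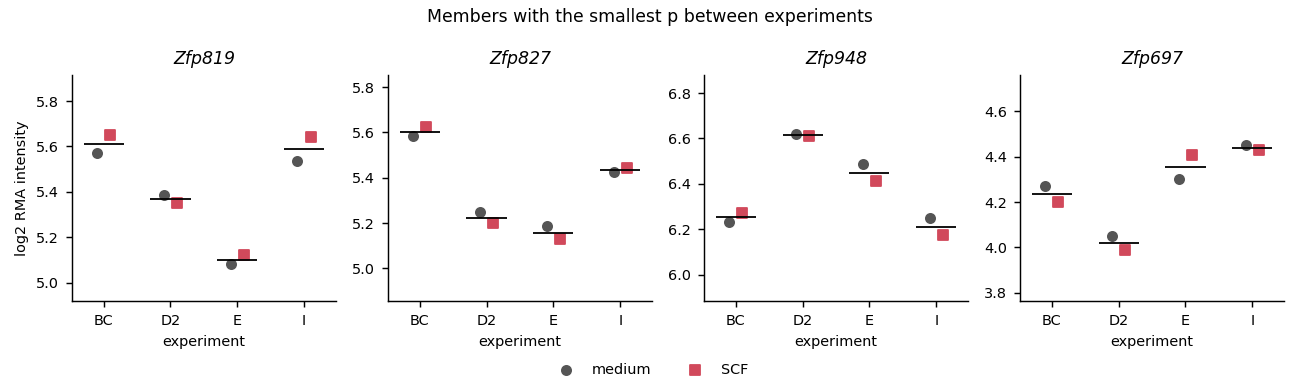
Log2 intensity of the 4 tested members with the smallest p between experiments, by experiment, with medium arrays as grey circles, SCF arrays as red squares and the mean of both as a black bar. Each panel spans 1 log2 unit. In each gene the 2 arrays of an experiment lie close together, and Zfp819 and Zfp827 passed the F test, while Zfp948 and Zfp697 did not.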

How the data were processed

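The authors deposited RMA intensities, per the submitters' processing notes, on a linear scale as the values show, for biotin-labelled RNA on Affymetrix arrays. The RMA version and any filter are not stated in the labels used. Values were taken to log2 without a pseudocount. Precision is limited by the 4 arrays in each group. P-values rest on the spread left after the experiment and treatment terms, moderated by a prior from all probe sets tested. For SCF this is the spread of the 4 experiments' differences.

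Of 41345 probe sets, 23521 carried a single symbol in the platform annotation, 1814 several (22 of them list a member) and 16010 none here. Named probe sets with a mean log2 intensity at or above their median, 4.05, were tested (12668) in limma 3.58.1 under R 4.3.3 (lmFit, eBayes, two-sided), with experiment as a block. P-values were adjusted by Benjamini-Hochberg over all of them at a threshold of 0.05, and 95% intervals are unadjusted. The fit had 3 residual degrees of freedom (7.39 with the prior), gave the F test between experiments too, and was checked on simulated data. The simulated differences were larger than those of any tested member, so the check does not cover differences of the size seen here. The design text pairs the arrays. Deviations from group means correlated between the arrays of an experiment at 0.36 to 0.46 over everything tested. Over the members the correlation was weaker, at 0.19 (E) to 0.36 (D2).

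The members and lists were chosen with earlier results of these data known. Named were Zfp772 and Rsl1, the 6 smallest p-values in each direction, the 4 smallest between experiments and the 6 brightest. So were a known-role list, the 2 members on each side of the filter and members within 10 genes of Zfp772 or Rsl1. Of the corepressor and heterochromatin list, Trim28, Setdb1 and the 3 smallest p-values were named. Zfp846, Zfp866, Zfp874b, Zfp455, Zfp456, Zfp418 and the genes at the numbering boundary were added after their values were seen. Alternatives were other filters, blocks, scalings, a variance trend, the mean of a gene's probe sets, and each experiment left out. RefSeq tables (GRCm38.p6) gave promoter windows and gene order.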

Additional observations from a re-analysis of the deposited data

Results flagged for a closer look

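Of 90 groups of 4 arrays examined (45 named members in medium and with SCF), 3 held an array far from the other 3 by Dixon's criterion, where chance gives about 1 in 20 groups. The SCF array of BC stood at 3.99 for Rsl1, below the other SCF arrays at 4.30 to 4.36. The SCF array of D2 stood at 4.89 for Zfp944, above the others at 4.69 to 4.71. The medium array of I stood at 3.04 for Zfp667, which lies below the intensity filter, under the others at 3.16 to 3.18.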

How the results depend on the processing

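The count of members called for SCF against medium was 0 under each of the 12 alternatives, including the fit with no replicate block (0 members) and experiment as a random block (0 members). The median difference of the tested members ranged from −0.02 to 0.01 over the alternatives. With the array medians equalized it was −0.02, as was the median over all probe sets, and 59.0% of members were below 0. The count of members that differed between experiments was 0 with no intensity filter, 4 of 24 with the stricter filter (22.0% of all probe sets), 5 with the variance trend (12.1% of all probe sets) and 0 when any 1 experiment was left out. The cause of these changes was not tested.

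For Zfp772 the difference ranged from −0.44 to −0.24 and for Rsl1 from −0.38 to −0.29 over the alternatives that kept them. Both lay below the stricter filter. Of 385 alternative values for the 34 named members tested, 384 were within 1 SD of the 4 experiments' differences. Filters, blocks and the variance trend leave a difference unchanged, and leaving out 1 of 4 experiments cannot move it by 1 SD. The count of 384 was thus largely fixed in advance, and nothing is read from it. Among the 385 values, 28, in 14 members with differences of at most 0.08 in size, had the sign turned. None of the 385 passed the threshold. The replicate block changed no call. Signal over background is unknown, which limits what can be said of the dim members.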
